A study of Mus musculus with 12 samples.

Results

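Lymphocytes were examined in bulk liver RNA-seq through 9 genes that mark T cells, B cells and cytotoxic cells: Cd3e, Cd3d, Cd8a, Cd4, Cd79a, Cd79b, Ms4a1, Nkg7 and Gzma. The genes were taken by name, whatever their counts, and all 9 were listed in both deposited count tables, which together list 23391 genes. Livers came from 12 male C57BL/6N mice of 4 to 6 months that carried floxed alleles of Elavl1, the gene of the RNA-binding protein HuR, with 3 mice in each of 4 groups. According to the labels, WT mice received AAV8-Tbg-null, a virus without Cre, and HuRHep-/- mice received AAV8-Tbg-Cre, in which the Tbg promoter drives Cre in hepatocytes. Each genotype was studied on chow and on HFCF, a diet with 40 kcal% fat, 2% cholesterol and 20 kcal% fructose fed for 16 weeks. The published methods differ, describing HuRHep-/- mice from an albumin-Cre cross and a younger age for the mice of the experiments. They state no separate age for the sequenced mice, and the groups used here follow the labels.

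T cells recognise antigen through a receptor that signals through the CD3 chains, and CD4 and CD8 are the co-receptors that divide helper from cytotoxic T cells. B cells signal through a surface antibody coupled to CD79A and CD79B, and MS4A1 is the B cell surface protein CD20. Cytotoxic T cells and NK cells kill through granules that hold granzymes, and the mouse liver normally houses T, B and NK cells in its sinusoids. A bulk sample holds few reads of such cells among those of hepatocytes.

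The depth was 30071731 to 35949203 counts per liver. Hepatocyte markers were present in every liver, with a summed level of 64915 to 122654 CPM, counts per 1000000 counts of the library, over the 9 of 10 markers listed. The targeted gene went against its label. Elavl1 was counted 938, 876 and 948 times in chow WT livers and 1475, 1265 and 1261 times in chow HuRHep-/- livers, a log2 fold change of 0.41 (SE 0.068, adjusted p = 0.022, limma). On HFCF it was counted 904, 791 and 849 times in WT and 1299, 1242 and 1271 times in HuRHep-/- livers, a log2 fold change of 0.38 (SE 0.072, adjusted p = 0.0327, limma). Both changes were below the fold of 1.5 asked of a call, and with 1 liver left out the adjusted p exceeded 0.05 in 4 of 6 fits on chow and in 5 of 6 on HFCF. The counts do not separate reads of deleted exons from the rest of the gene, so each genotype direction below is that between livers labelled HuRHep-/- and livers labelled WT.

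The upstream sequences of 4 genes whose products act in T cell signalling or killing are shown because Cd3e, Cd3d, Nkg7 and Gzma were the genes with a match to a motif searched. Motifs were chosen after the promoter table had been opened. The T-box half-site AGGTGT, the core of sites bound by T-bet and Eomes, and the RUNX core TGTGGT were sought on both strands in the 250 bases before each RefSeq start, and the capitals mark the matches. On the opposite strand they read ACACCT and ACCACA. Sequences are from RefSeq (GRCm38.p6), are given 5′ to 3′ on the strand of the gene, and stop where the GENCODE gene begins.
Cd3e, chr9:45009628-45009861, minus strand: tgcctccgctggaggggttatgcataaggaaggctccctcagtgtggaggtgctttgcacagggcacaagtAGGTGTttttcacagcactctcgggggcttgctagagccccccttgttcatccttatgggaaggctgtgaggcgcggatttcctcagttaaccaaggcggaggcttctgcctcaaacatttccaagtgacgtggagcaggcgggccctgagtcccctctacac
Cd3d, chr9:44981536-44981785, plus strand: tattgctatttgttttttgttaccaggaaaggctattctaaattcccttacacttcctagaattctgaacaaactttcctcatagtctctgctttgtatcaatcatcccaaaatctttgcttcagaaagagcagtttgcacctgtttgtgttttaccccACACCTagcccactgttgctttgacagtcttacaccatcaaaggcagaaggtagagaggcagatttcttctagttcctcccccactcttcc
Nkg7, chr7:43436888-43437072, plus strand: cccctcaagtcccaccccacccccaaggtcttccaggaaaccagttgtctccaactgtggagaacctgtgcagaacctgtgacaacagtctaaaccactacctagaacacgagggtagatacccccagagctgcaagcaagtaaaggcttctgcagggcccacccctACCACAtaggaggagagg
Gzma, chr13:113100982-113101231, minus strand: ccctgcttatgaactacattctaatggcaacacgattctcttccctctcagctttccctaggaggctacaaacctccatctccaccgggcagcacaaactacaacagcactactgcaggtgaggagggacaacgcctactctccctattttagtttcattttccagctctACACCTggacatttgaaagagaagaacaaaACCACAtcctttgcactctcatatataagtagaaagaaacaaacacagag

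The promoter table held 6 of the 9 genes, these 4 with Cd8a and Cd79a. The T-box half-site lay 179 bases before the start of Cd3e, 91 before that of Cd3d, 80 before that of Gzma and 14 before that of Nkg7, the last within the GENCODE gene and so outside the sequence shown. This motif was in 4 of the 6 member promoters and in 11.8% of 32851 promoters of the same length. The RUNX core lay 83 bases before the start of Nkg7 and 50 before that of Gzma, and 14% of all promoters held it. The E-box CAGCTG, the octamer ATGCAAAT and the ETS site CCGGAAGT were in 0 of the 6 and in 13%, 1.6% and 2.88% of all promoters. A match describes letters and not a bound site.

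In GRCm38, Cd3e (chr9:44998740-45009627) and Cd3d (chr9:44981786-44987339) are neighbours on opposite strands with 11400 bases between their annotated ends. Cd8a (chr6:71373427-71379173) and Cd4 (chr6:124864692-124888221) share chromosome 6, and Cd79a (chr7:24897381-24902197) and Nkg7 (chr7:43437073-43438249) share chromosome 7. Cd79b is at chr11:106311341-106314762, Ms4a1 at chr19:11249675-11266241 and Gzma at chr13:113093825-113100981. Counts were made over gene models, and 12.2% of the 31-base words of the longest Cd79a transcript also occurred in transcripts of other genes, the highest share among the 9 genes. It was 2.09% or lower for the other 8. Exons of Cd3e overlap Gm48719 on the opposite strand over 135 bases, and the authors aligned with strand.

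Among the genes of the T cell receptor complex, Cd3e and Cd3d were counted in every liver and were highest in HFCF HuRHep-/- livers. Cd3e, the epsilon chain, was counted 8, 8 and 11 times in chow WT, 8, 8 and 8 times in chow HuRHep-/-, 13, 6 and 10 times in HFCF WT and 26, 32 and 23 times in HFCF HuRHep-/- livers. Its 3 HFCF HuRHep-/- livers stood above the 9 others, which lay close together. Cd3d, the delta chain, was counted 8, 8 and 13 times in chow WT, 10, 15 and 10 times in chow HuRHep-/-, 15, 5 and 13 times in HFCF WT and 27, 20 and 23 times in HFCF HuRHep-/- livers. The same 3 livers were again the highest, and HFCF WT liver 2 was the lowest of the 12 for both chains.

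The co-receptors followed different patterns. Cd8a, the CD8 alpha chain of cytotoxic T cells, was counted 4, 6 and 2 times in chow WT, 5, 5 and 6 times in chow HuRHep-/-, 11, 8 and 8 times in HFCF WT and 16, 34 and 26 times in HFCF HuRHep-/- livers. All 6 HFCF livers stood above the 6 chow livers, and within HFCF the genotypes did not overlap. Cd4, the co-receptor of helper T cells, was counted 22, 37 and 26 times in chow WT, 38, 61 and 38 times in chow HuRHep-/-, 76, 133 and 26 times in HFCF WT and 42, 44 and 41 times in HFCF HuRHep-/- livers. Its widest spread was within HFCF WT, where liver 2 had the highest count of all 12 and liver 3 one of the lowest, while the 3 HFCF HuRHep-/- livers were nearly alike. CD4 is also found on some myeloid cells, so its count in whole liver is less particular to T cells than that of the CD3 chains.

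Of the B cell genes, Cd79a and Cd79b had more counts than the CD3 chains in every liver. Cd79a, the immunoglobulin alpha signalling chain, was counted 24, 43 and 46 times in chow WT, 53, 54 and 31 times in chow HuRHep-/-, 44, 20 and 24 times in HFCF WT and 57, 58 and 56 times in HFCF HuRHep-/- livers. Within HFCF the HuRHep-/- livers were higher without overlap, but their level was within the range of the chow HuRHep-/- livers. Cd79b, the partner chain, was counted 25, 46 and 34 times in chow WT, 52, 51 and 28 times in chow HuRHep-/-, 47, 25 and 33 times in HFCF WT and 70, 38 and 47 times in HFCF HuRHep-/- livers. Ms4a1 was counted 6, 14 and 16 times in chow WT, 16, 20 and 13 times in chow HuRHep-/-, 23, 11 and 12 times in HFCF WT and 17, 20 and 17 times in HFCF HuRHep-/- livers. For both genes the groups overlapped in every comparison.

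Of the cytotoxic genes, Nkg7, which encodes a granule membrane protein, was counted 12, 23 and 15 times in chow WT, 9, 13 and 19 times in chow HuRHep-/-, 18, 12 and 20 times in HFCF WT and 44, 56 and 33 times in HFCF HuRHep-/- livers. The last 3 stood above the 9 others. Gzma, the protease granzyme A, was counted 11, 7 and 6 times in chow WT, 3, 12 and 4 times in chow HuRHep-/-, 12, 4 and 8 times in HFCF WT and 15, 42 and 11 times in HFCF HuRHep-/- livers. One of these, liver 2, was far above the rest, and liver 3 was lower than the highest HFCF WT liver on the CPM scale.

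**Figure D1:**
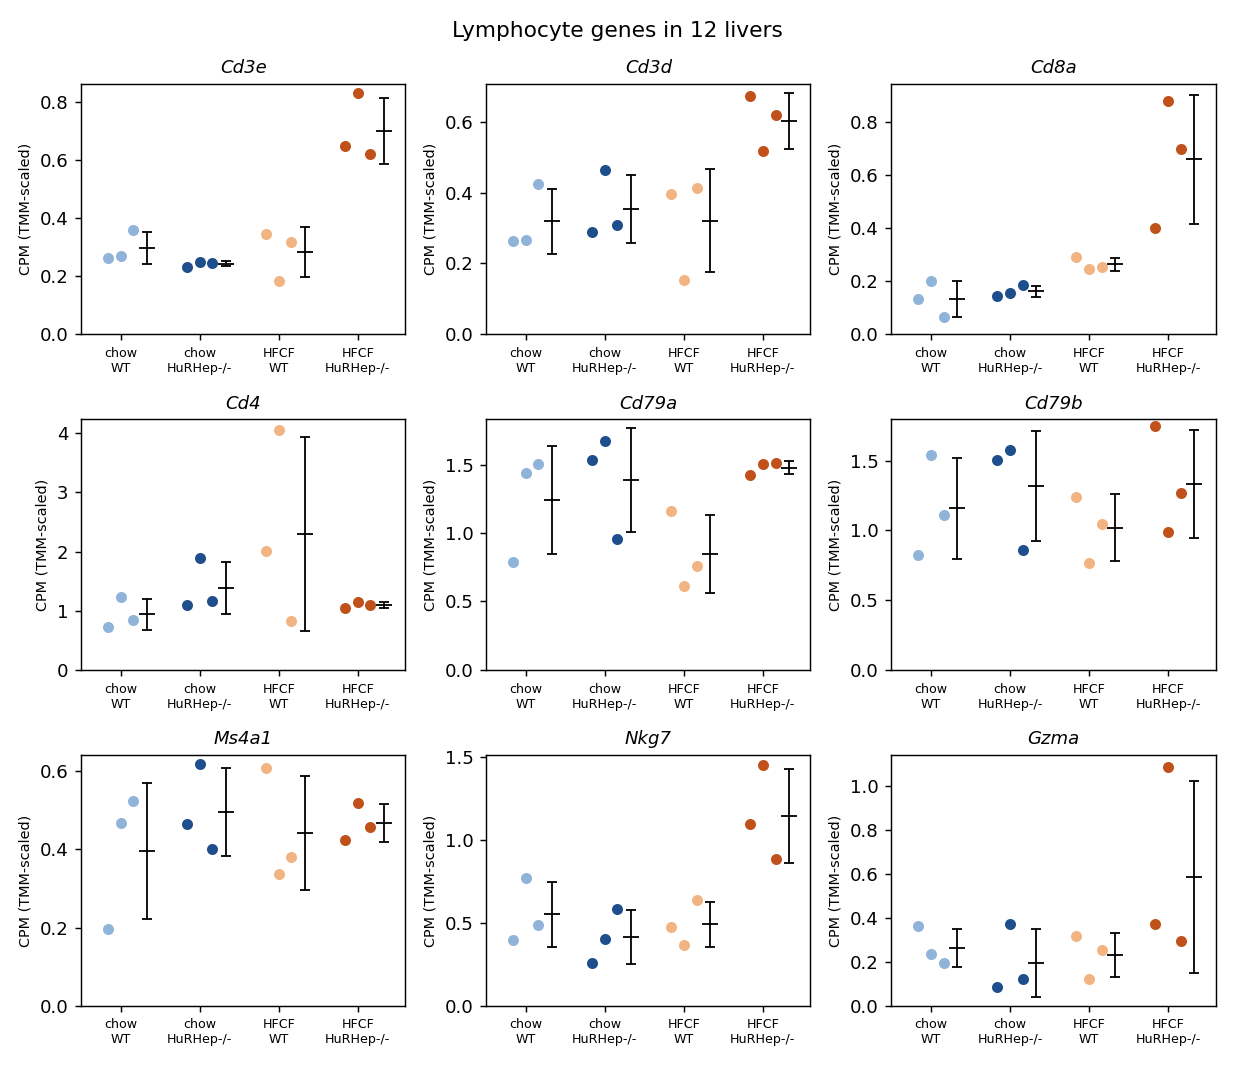
Level of each of the 9 genes in 12 livers, in CPM scaled by TMM factors on the vertical axis (0 at the base), with 1 point per liver and the mean ± SD of the 3 livers of a group beside them. Cd3e, Cd3d, Cd8a and Nkg7 were highest in the 3 HFCF HuRHep-/- livers, while Cd79b and Ms4a1 overlapped between all groups.

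Counts this low limit precision. Cd8a had 12 counts summed over the chow WT livers, with an exact Poisson 95% interval of 6.20 to 21.0, and 76 over the HFCF HuRHep-/- livers, with an interval of 59.9 to 95.1. These intervals cover counting error only. A single count of 10 carries an interval of 4.80 to 18.4.

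Per length, in RPKM, the CPM divided by kilobases of exon, the B cell receptor chains led in chow. In chow WT livers the level was 0.854 ± 0.271 RPKM for Cd79a and 0.809 ± 0.252 RPKM for Cd79b (SD, n = 3), followed by Nkg7 at 0.603 ± 0.213, Gzma at 0.263 ± 0.0864, Cd4 at 0.232 ± 0.0663, Cd3d at 0.176 ± 0.0508, Cd3e at 0.0727 ± 0.0133, Ms4a1 at 0.0640 ± 0.0282 and Cd8a at 0.0364 ± 0.0186 RPKM. Neighbours in this order overlapped between livers, except Nkg7 with Gzma and Cd3d with Cd3e. In chow HuRHep-/- livers Cd79a, Cd79b and Nkg7 again came first, in that order, and Cd8a last. In HFCF WT livers Cd79b, at 0.711 ± 0.168 RPKM, and Cd79a, at 0.580 ± 0.195, were followed by Cd4, at 0.570 ± 0.406, and by Nkg7, and the neighbours among these 4 overlapped. In HFCF HuRHep-/- livers Nkg7 came first with 1.25 ± 0.311 RPKM, before Cd79a at 1.01 ± 0.0336 and Cd79b at 0.931 ± 0.269, and these 3 also overlapped with their neighbours. Ms4a1 came last there, at 0.0754 ± 0.00774 RPKM.

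The first comparison asked whether the lymphocyte genes differed between genotypes on chow. Of the 9 genes, 5 had enough counts to be tested and 0 passed an adjusted p of at most 0.05 with a fold change of at least 1.5 (limma on log2 CPM, Benjamini-Hochberg over 13526 genes). By the same criteria 2.23% of all genes passed. At an unadjusted p under 0.05 the count was also 0, and limma with voom weights called 0. Cd4 had a log2 fold change of 0.56 (SE 0.31, adjusted p = 0.318), with counts that overlapped between genotypes. The B cell genes had estimates of 0.18 (SE 0.33) for Cd79a, 0.18 (SE 0.33) for Cd79b and 0.40 (SE 0.44) for Ms4a1, each within the spread between livers, and each changed sign without chow WT liver 1. Nkg7 was estimated at -0.41 (SE 0.41). Without a filter on counts the 4 remaining genes had log2 fold changes of -0.27 (SE 0.40) for Cd3e, 0.14 (SE 0.42) for Cd3d, 0.35 (SE 0.53) for Cd8a and -0.63 (SE 0.59) for Gzma. Cd3e alone did not overlap, lower in HuRHep-/- livers under 3 of the 4 scalings and overlapping with library totals. Among all genes tested, 29.3% had groups without overlap.

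On HFCF, the 3 livers labelled HuRHep-/- had higher estimates for 8 of the 9 genes, yet 0 of 9 passed the criteria, against 3.62% of 14295 genes in either direction and 2.15% higher. At an unadjusted p under 0.05 there were 4 genes, and limma with voom weights gave 0 calls and 5 genes at that p. The share of all genes at an unadjusted p under 0.05 was not determined in any comparison. Counts at that p, here and below, therefore have no background beside them. The log2 fold changes were 1.28 for Cd3e (SE 0.35, adjusted p = 0.0682), 1.18 for Nkg7 (SE 0.31, adjusted p = 0.0633) and 1.19 for Cd8a (SE 0.37, adjusted p = 0.0926). Those of Cd3d and Gzma were 0.97 (SE 0.43, adjusted p = 0.184) and 1.13 (SE 0.59, adjusted p = 0.243). Each leaned on single livers, with Cd3d at 0.53 without HFCF WT liver 2, and Gzma at 0.57 without HFCF HuRHep-/- liver 2 and at 0.75 without HFCF WT liver 2. Among the B cell genes the estimate was 0.83 for Cd79a (SE 0.27, adjusted p = 0.101), 0.35 for Cd79b (SE 0.29) and 0.10 for Ms4a1 (SE 0.33). Cd4 went the other way, at -0.80 (SE 0.52, adjusted p = 0.339).

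In this comparison 5 of 9 genes, Cd3e, Cd3d, Cd8a, Cd79a and Nkg7, were higher in every HuRHep-/- liver than in any WT liver, a pattern seen in 18.7% of all genes tested. Cd3e, Cd3d, Cd8a and Gzma entered the test only through their counts in the HuRHep-/- livers, so the number tested and their direction carry no weight of their own. The number called depended on the scaling and on single livers. It was 1 with library totals in place of TMM factors (Nkg7, adjusted p = 0.0469), 1 in a fit on all 12 livers (Cd3e, log2 fold change 1.30, adjusted p = 0.0268) and 2 without HFCF WT liver 3 (Cd4 at -1.38, adjusted p = 0.0464, and Nkg7 at 1.39, adjusted p = 0.049). Without HFCF WT liver 2 the estimate of Cd4 shrank to -0.25 (adjusted p = 0.714). Calls over all genes rose as well, from 517 to 713 with library totals and to 850 without HFCF WT liver 3.

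The difference between the genotype effects of both diets was then tested as an interaction, in which 0 of 9 members and 0% of 14535 genes passed. The count at an unadjusted p under 0.05 was 2, with trend and with voom weights alike, and voom called 0 members. The estimates, the log2 fold change on HFCF minus that on chow, were 1.57 for Cd3e (SE 0.46, adjusted p = 0.198) and 1.61 for Nkg7 (SE 0.52, adjusted p = 0.223). Gzma had an estimate of 1.77 (SE 0.87, adjusted p = 0.38) and Cd4 one of -1.33 (SE 0.64, adjusted p = 0.373), which was -0.78 without HFCF WT liver 2 and -1.92 without HFCF WT liver 3. Cd8a, Cd3d and Cd79a were at 0.86 (SE 0.62), 0.85 (SE 0.57) and 0.67 (SE 0.44), and Cd79b and Ms4a1 at 0.19 (SE 0.46) and -0.28 (SE 0.55). A difference between the diets in the genotype effect was therefore not detected for any member at this depth and number of livers.

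HFCF was set against chow within each genotype in a fit on all 12 livers. Each diet was deposited in its own count table, so diet and table cannot be told apart. In WT livers 0 of 9 genes passed, where 9.38% of all genes did and 6.14% rose. The count at an unadjusted p under 0.05 was 2 members, Cd8a and Cd4, and voom weights gave 0 calls and 0 members at that p. Cd8a had a log2 fold change of 1.00 (SE 0.44, adjusted p = 0.114) and was the 1 member without overlap, higher on HFCF, as were 17.8% of all genes. Cd4 had one of 1.04 (SE 0.46, adjusted p = 0.118), which became 1.63 (adjusted p = 0.0133) without HFCF WT liver 3 and 0.49 (adjusted p = 0.365) without HFCF WT liver 2, the livers with the lowest and the highest Cd4 count of that group. Cd3e (-0.11, SE 0.32), Cd3d (-0.08, SE 0.40) and Nkg7 (-0.14, SE 0.37) were near 0, and Gzma was at -0.24 (SE 0.62). The B cell genes lay at -0.55 (SE 0.31) for Cd79a, -0.17 (SE 0.32) for Cd79b and 0.21 (SE 0.39) for Ms4a1.

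In HuRHep-/- livers 3 of the 9 genes rose with HFCF, Cd3e, Cd8a and Nkg7, and 0 fell. Over all genes 19.1% passed in this comparison and 14.2% rose, so that many genes outside the lymphocyte group moved as well. Cd8a rose by a log2 fold change of 1.87 (SE 0.44, adjusted p = 0.00663), Cd3e by 1.46 (SE 0.32, adjusted p = 0.00496) and Nkg7 by 1.47 (SE 0.37, adjusted p = 0.00917). These are folds of 3.64, 2.75 and 2.77. All 3 passed when any 1 of the 12 livers was left out, with RLE or upper-quartile factors or library totals, with voom weights and without a filter on counts. Cd8a entered the test only through its HFCF HuRHep-/- livers, and without the filter its log2 fold change was 1.84 (adjusted p = 0.00882).

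Gzma had an estimate of the same size in this comparison, 1.53, with a wider error (SE 0.62, adjusted p = 0.0684), and passed with library totals alone among the scalings (1.76, adjusted p = 0.0405). It ranged from 0.97 (adjusted p = 0.261) without HFCF HuRHep-/- liver 2 to 2.10 (adjusted p = 0.025, with fewer than 10 counts left in the chow group) without chow HuRHep-/- liver 2. Cd3d was at 0.76 (SE 0.40, adjusted p = 0.155), although its groups did not overlap. Together with the 3 genes called it made 4 of 9 members that were higher in every HFCF liver, against 27.5% of all genes. Cd4 was at -0.29 (SE 0.46), Cd79a at 0.13 (SE 0.31), Cd79b at 0.03 (SE 0.32) and Ms4a1 at -0.07 (SE 0.39). The T cell and cytotoxic genes called and the B cell genes were not tested against each other. Both diet comparisons are part of 1 fit and share no livers. In bulk tissue, more cells of a type and more RNA per cell cannot be told apart.

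**Figure D2:**
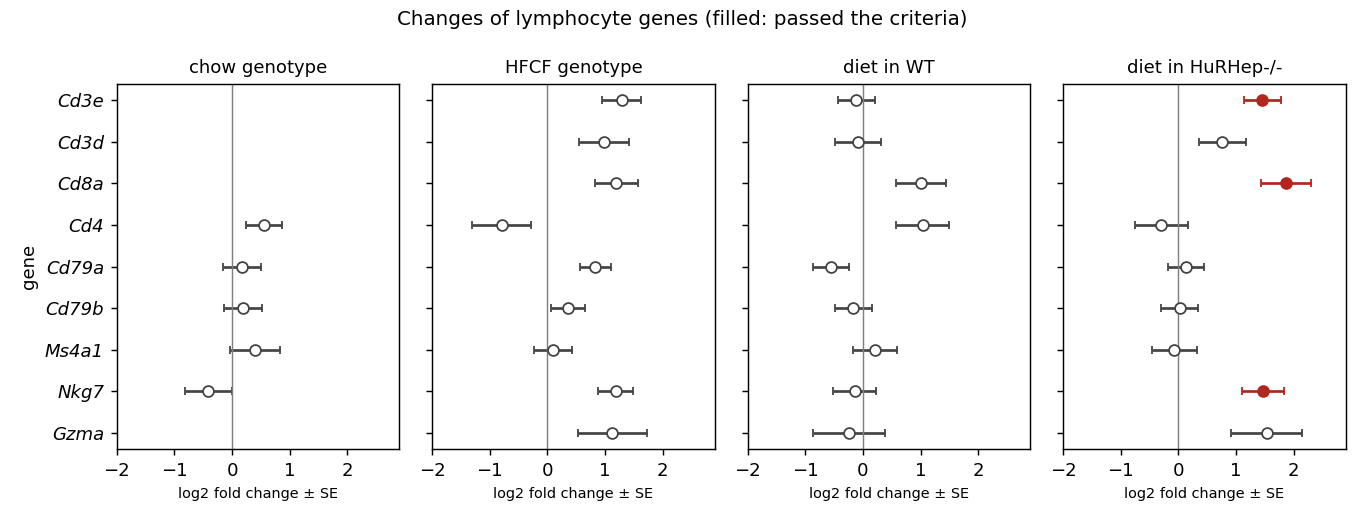
Log2 fold change ± SE of each gene in 4 comparisons, with HuRHep-/- relative to WT on chow and on HFCF, and HFCF relative to chow in WT and in HuRHep-/- livers (n = 3 livers per group). Filled red points passed the criteria, 3 of 9 with HFCF in HuRHep-/- livers and 0 elsewhere, and genes with too few counts on chow have no point.

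Counts of these genes can also be set against each other within a liver, where library size and scaling cancel. These ratios are descriptions without a test. Counts of Cd3e plus Cd3d over those of Cd79a plus Cd79b were 0.327, 0.180 and 0.30 in chow WT, 0.171, 0.219 and 0.305 in chow HuRHep-/-, 0.308, 0.244 and 0.404 in HFCF WT and 0.417, 0.542 and 0.447 in HFCF HuRHep-/- livers. All 3 HFCF HuRHep-/- livers were above the 9 others, the nearest of which was HFCF WT liver 3. The ratio of Cd8a to Cd4 was 0.182, 0.162 and 0.0769 in chow WT, 0.132, 0.0820 and 0.158 in chow HuRHep-/-, 0.145, 0.0602 and 0.308 in HFCF WT and 0.381, 0.773 and 0.634 in HFCF HuRHep-/- livers. Here too the same 3 livers were the highest. Cd8a over Cd3e plus Cd3d did not separate them, at 0.302, 0.654 and 0.565 beside 0.393, 0.727 and 0.348 in HFCF WT livers.

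The ratio of Cd4 to Cd3e plus Cd3d was 1.38, 2.31 and 1.08 in chow WT, 2.11, 2.65 and 2.11 in chow HuRHep-/-, 2.71, 12.1 and 1.13 in HFCF WT and 0.792, 0.846 and 0.891 in HFCF HuRHep-/- livers. HFCF WT liver 2 stood apart, with 133 counts of Cd4 beside 6 of Cd3e and 5 of Cd3d. Nkg7 over Cd3e plus Cd3d ranged from 0.717 to 1.08 in HFCF HuRHep-/- livers, within the 0.625 to 1.44 of chow WT livers.

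**Figure D3:**
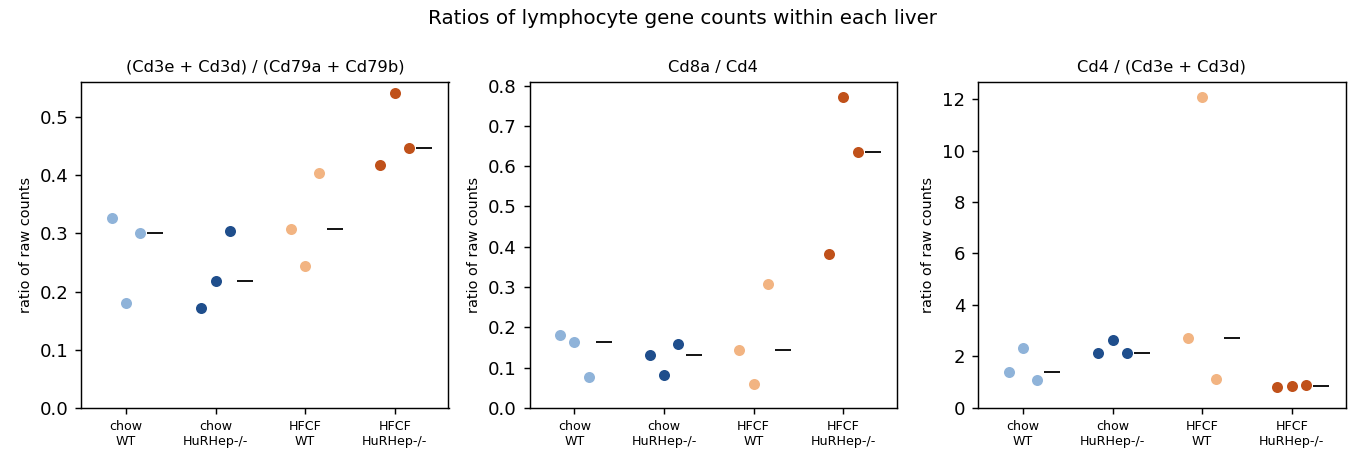
Ratios of raw counts within each liver, with 1 point per liver, a bar at the median of the 3 livers of a group and linear axes from 0. The first 2 ratios were highest in the 3 HFCF HuRHep-/- livers, and the third shows HFCF WT liver 2 at 12.1.

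Other genes of the same cell types were taken from lists by name. Of 30 other T cell genes, 17 were tested in the HFCF genotype comparison, and all 17 estimates were higher in HuRHep-/- livers with a median log2 fold change of 0.64, against 0.00 over all genes, but 0 passed (5 at an unadjusted p under 0.05, 0 with voom weights). Of 24 other B cell genes 22 were tested, 19 estimates were higher with a median of 0.51, and 0 passed (8 at an unadjusted p under 0.05, 0 with voom weights). Of 27 other cytotoxic and NK genes only 8 were tested, 7 were higher with a median of 0.65, and 0 passed (3 at an unadjusted p under 0.05, 0 with voom weights). Of 10 plasma cell genes 8 were tested, 6 were higher, and 0 passed (2 at an unadjusted p under 0.05, 0 with voom weights). Of these genes, 7 T cell, 7 B cell, 5 cytotoxic and 2 plasma cell genes reached the count filter only with the HuRHep-/- livers included, which favours higher estimates, so that these counts and medians carry no weight of their own. All 10 pan-leukocyte genes, of which 0 depended on those livers for the filter, were higher in estimate, and 1 passed, where 2.15% of all genes were called higher. Of the 10, 9 were at an unadjusted p under 0.05, and voom weights called 1. The gene that passed was Arhgdib, a gene common to blood cells, with a log2 fold change of 0.84 (SE 0.15, adjusted p = 0.0282). It was counted 302, 190 and 255 times in HFCF WT and 556, 463 and 499 times in HFCF HuRHep-/- livers.

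On chow, 0 genes of these 5 lists passed between genotypes, where the count at an unadjusted p under 0.05 was 1 T cell, 3 B cell, 1 plasma cell, 0 cytotoxic and 3 pan-leukocyte genes, and voom weights gave 0 calls. The gene with the smallest p of each list was Tcf7, a T cell transcription factor (0.41, SE 0.13, adjusted p = 0.125), Blnk, an adaptor of B cell receptor signalling (1.17, SE 0.36, adjusted p = 0.108), and Sdc1 (0.31, SE 0.083, adjusted p = 0.0795), a plasma cell marker that is also abundant on hepatocytes. Il2rb, an interleukin receptor chain of NK and T cells, was at -0.45 (SE 0.35, adjusted p = 0.47), and Ptprc, which encodes CD45, at 0.52 (SE 0.18, adjusted p = 0.146). In the interaction test 0 genes of the lists passed, with 6, 3, 1, 2 and 3 at an unadjusted p under 0.05 among T cell, B cell, plasma cell, cytotoxic and pan-leukocyte genes and 0 calls with voom weights. The smallest p in each list there belonged to Thy1 (1.26, SE 0.34, adjusted p = 0.175), Fcmr (1.66, SE 0.60, adjusted p = 0.26), Derl3 (-1.63, SE 0.75, adjusted p = 0.346), Ccl5 (1.36, SE 0.44, adjusted p = 0.225) and Arhgdib (0.84, SE 0.23, adjusted p = 0.184).

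With HFCF in HuRHep-/- livers, 22 genes of these lists passed and all rose, where 14.2% of all genes did, among them 10 of 10 pan-leukocyte genes with a median log2 fold change of 1.21. How many genes of the lists reached the count filter only through the HFCF HuRHep-/- livers was not examined here. The T cell list had 4 of 19 tested, namely Themis and, named after their values were seen, Cd3g, Lck and Thy1. Its estimates were higher for 15 genes and lower for 4. T cell genes that did not pass, also named after their values were seen, included Trac (1.09, SE 0.43, adjusted p = 0.0669) and Trbc2 (1.06, SE 0.50, adjusted p = 0.11). Cd2 (0.61, SE 0.34, adjusted p = 0.169) and Tcf7 (-0.32, SE 0.14, adjusted p = 0.0991) did not pass either. Cd3g, the gamma chain that completes the CD3 complex, rose by 0.93 (SE 0.25, adjusted p = 0.0141), and Lck, the kinase that CD4 and CD8 carry to the receptor, by 1.04 (SE 0.24, adjusted p = 0.00597). The B cell list had 6 of 22, and the plasma cell and cytotoxic lists 1 of 9 each. The cytotoxic gene was Ccl5, a chemokine of activated T and NK cells, with 22, 27 and 18 counts in chow and 97, 129 and 89 counts in HFCF HuRHep-/- livers and a log2 fold change of 1.99 (SE 0.31, adjusted p = 0.000879). Among cytotoxic and NK genes named after their values were seen, Gzmb (0.30, SE 0.62, adjusted p = 0.728), Klrb1c (0.29, SE 0.89, adjusted p = 0.821) and Il2rb (0.73, SE 0.33, adjusted p = 0.0973) did not pass. Prf1 and Ncr1 had too few counts to be tested. In HFCF HuRHep-/- livers Prf1 was counted 2, 6 and 2 times and Ncr1 4, 2 and 1 times.

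In WT livers 7 genes of the lists passed with HFCF, and all rose: 3 of 10 pan-leukocyte, 2 of 22 B cell, 1 of 19 T cell and 1 of 9 plasma cell genes tested, where 6.14% of all genes rose. Among them Derl3, a protein of the endoplasmic reticulum quality control that plasma cells use, rose by a log2 fold change of 1.96 (SE 0.53, adjusted p = 0.0206). The largest rises in both genotypes were those of Themis, at 4.23 in WT and 4.81 in HuRHep-/- livers, and Ly6d, at 4.02 and 5.56.

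Levels of several other cell types also differed between the groups, given here as ranges without a test of the sums. The summed level of the 10 pan-leukocyte genes was 41.4 to 54.4 CPM in chow WT, 47.7 to 75.1 in chow HuRHep-/-, 54.7 to 111 in HFCF WT and 124 to 160 in HFCF HuRHep-/- livers. The 14 Kupffer cell and macrophage markers summed to 375 to 447, 497 to 683, 510 to 783 and 749 to 1035 CPM in the same order, and the 11 monocyte and neutrophil markers to 6.06 to 9.40, 7.51 to 13.7, 10.7 to 20.3 and 24.5 to 30.9 CPM. Of the latter, the neutrophil marker Ly6g was not analysed in the chow livers and was at 0 in the HFCF WT livers. The 6 cholangiocyte markers summed to 35.7 to 79.6, 47.7 to 78.4, 39.2 to 88.5 and 134 to 244 CPM, and 6 of 6 rose with HFCF in HuRHep-/- livers, against 14.2% of all genes. In the same comparison 8 of 8 stellate cell and fibroblast markers rose, and 8 of 14 Kupffer cell and macrophage markers, of which 1 fell. So did 5 of 9 dendritic cell, 4 of 8 monocyte and neutrophil and 1 of 8 sinusoidal endothelial markers tested. Between genotypes on HFCF, 2 of the 6 cholangiocyte markers and 1 of the 8 monocyte and neutrophil markers tested rose, against 2.15% of all genes. The 8 stellate cell and fibroblast markers summed to 161 to 189, 129 to 199, 167 to 375 and 367 to 462 CPM, and the 8 sinusoidal endothelial markers to 135 to 176, 126 to 164, 140 to 166 and 157 to 159 CPM.

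The 10 dendritic cell markers summed to 143 to 161, 154 to 177, 170 to 200 and 196 to 229 CPM, the 5 red blood cell genes to 486 to 742, 338 to 1098, 713 to 846 and 599 to 1059 CPM, and the 9 hepatocyte markers to 99491 to 122654, 82817 to 90340, 69443 to 77148 and 64915 to 69464 CPM. Red blood cell genes had 0 calls in either diet comparison, while 4 of 9 hepatocyte markers fell with HFCF in WT and 2 of 9 in HuRHep-/- livers, against 3.24% and 4.91% of all genes. The part of these other cell types, and of residual blood, in the changes of the lymphocyte genes was not tested.

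**Figure D4:**
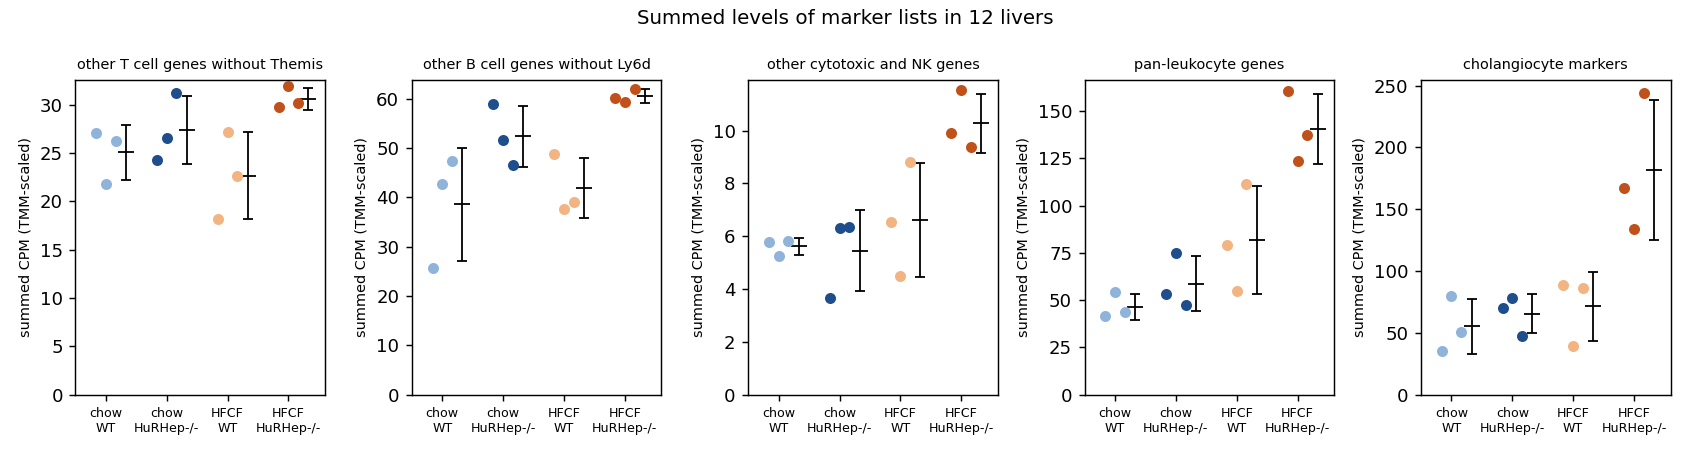
Summed level of 5 marker lists in 12 livers, in CPM scaled by TMM factors (axes from 0), with 1 point per liver and the mean ± SD of 3 livers. Pan-leukocyte and cholangiocyte sums were highest in HFCF HuRHep-/- livers, at 124 to 160 and 134 to 244, and T and B cell lists are drawn without Themis and Ly6d.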

How the data were processed

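The authors aligned reads in CLC Genomics Workbench, version not given in the sources used here, to GRCm38.p6 and deposited raw counts per gene in 2 tables, 1 per diet, without normalization. The deposited values are whole counts stored as text, and only some of them hold commas between digits. Their unit was therefore recorded as other, and no count test was used. Total counts were 30071731 to 35949203 per liver, and libraries came from a stranded kit. No pair of libraries was identical.

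CPM were computed from the deposited counts with TMM factors (trims 0.3 and 0.05). Genes were kept if at least 3 libraries reached the CPM that 10 counts make in a library of median depth, and if they had 15 counts in all. They were tested with limma 3.58.1 (trend, R 4.3.3) on log2 CPM with a pseudocount of 0.5, so that fold changes of low genes are understated. Genotypes were compared in the 6 livers of each diet. Diets and the interaction used 12 livers and the 20093 genes in both tables. Calls required an adjusted p (Benjamini-Hochberg over all genes tested) of at most 0.05, a fold of at least 1.5 and 10 counts over each group. RPKM used exon lengths of GENCODE vM21. With 3 livers per group an exact permutation test cannot go below p = 0.1. Each limma p-value sets a difference between groups against the spread between these livers, moderated over all genes. For diets and the interaction that spread came from all 12 livers.

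On simulated counts, 97 of 97 genes changed 4-fold and 54 of 98 changed 2-fold were called for chow genotype among 13549 genes, 96 of 97 and 53 of 98 for HFCF genotype among 14298, and 81 of 100 and 14 of 100 for the interaction among 14387. For diet they were 97 of 100 and 44 of 100 in WT among 14382 genes and 99 of 100 and 46 of 100 in HuRHep-/- among 14387. Unchanged genes called were 9, 11, 3, 13 and 7 in the same order. The changed genes were drawn from all genes that passed the filter, with the same relative spread between libraries for every gene. These shares therefore do not give the chance of a call for members with few counts or a wide spread.

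Members and lists were chosen with earlier results of these data known. All members are named. From the 5 lymphocyte and leukocyte lists, all called genes were named where there were at most 6, otherwise the 3 with the largest rise and fall, and the smallest p of each list where none passed. The alternatives were other scalings, filters, pseudocount 2, voom weights, a replicate block, a fit on 12 livers and leaving out each liver. Voom weights without a filter, the overlap of groups under other scalings, and list sums without Themis or Ly6d were added after the data were seen.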

Additional observations from a re-analysis of the deposited data

How the results depend on the processing

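Of the members' log2 fold changes under settings other than leaving out a liver, 350 kept direction and side of the threshold, 3 passed it newly and 6 turned. The 3 were Nkg7 (1.33, adjusted p = 0.0469) with library totals and Cd3e (1.30, adjusted p = 0.0268) in the fit on 12 livers, both in the HFCF genotype comparison, where each made the count of members 1, and Gzma (1.76, adjusted p = 0.0405) with library totals for HFCF in HuRHep-/- livers. With library totals the estimates turned to 0.066 for Cd3e, 0.096 for Cd3d, 0.012 for Cd79b and 0.035 for Nkg7 for HFCF in WT livers and to 0.16 for Ms4a1 in HuRHep-/- livers, the last at 0.0097 with upper-quartile factors. Library totals moved the median of all genes by 0.15 in the HFCF genotype comparison and by 0.18 and 0.23 for diet in WT and HuRHep-/- livers. The share of calls that were higher moved from 57.1% to 73.5% (chow genotype), 59.4% to 83.5% (HFCF genotype), 65.4% to 88.5% (diet in WT) and 74.2% to 90.8% (diet in HuRHep-/-). With 10 counts required in every liver, 0 members passed for diet in HuRHep-/- livers, since the 3 called were then not tested.

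Leaving out 1 liver gave 0 to 2 members in the HFCF genotype comparison, 0 to 1 for diet in WT and 3 in each fit for diet in HuRHep-/-. Both changes came without HFCF WT liver 3. Signs turned within these ranges: on chow, Cd79a -0.12 to 0.42, Cd79b -0.039 to 0.46 and Ms4a1 -0.025 to 0.64; on HFCF, Ms4a1 -0.072 to 0.35; in the interaction, Cd79b -0.083 to 0.41 and Ms4a1 -0.53 to 0.14. For diet in WT they were Cd3e -0.27 to 0.15, Cd3d -0.32 to 0.36, Cd79b -0.39 to 0.058, Ms4a1 -0.21 to 0.46, Nkg7 -0.35 to 0.12 and Gzma -0.50 to 0.13. For diet in HuRHep-/- they were Cd79a -0.12 to 0.28, Cd79b -0.25 to 0.22 and Ms4a1 -0.20 to 0.10. Elavl1 ranged from 0.36 to 0.44 on chow (adjusted p 0.0377 to 0.106, above 0.05 in 4 of 6) and from 0.36 to 0.45 on HFCF (0.0281 to 0.121, above 0.05 in 5 of 6). Calls over all genes ranged from 8 to 321 on chow against 301, from 28 to 850 on HFCF against 517, from 0 to 34 in the interaction against 0 and from 847 to 1784 for diet in WT against 1363. Library totals gave 8 in the interaction. The cause of these shifts was not tested.

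Replicate numbers were not taken to pair the livers, since not every pair of a comparison correlated above 0.1. The correlations by number were -0.028, 0.118 and -0.015 on chow and 0.106, 0.220 and 0.092 on HFCF. For HFCF genotype, 6 of 6 livers correlated best with their own number, a hint from the data alone, and 2 of 6 did in each other comparison. With the replicate block 0 members passed on chow, on HFCF, in the interaction and for diet in WT, and 3 for diet in HuRHep-/-, and calls over all genes went from 301 to 226 on chow and from 517 to 764 on HFCF.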

Other observations

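Themis and Ly6d, placed in the lists as a T cell signalling gene and a lymphocyte surface marker, parted from the other lymphocyte genes. They were singled out by the rule on the largest rises. Themis was counted 12, 27 and 19 times in chow WT and 445, 214 and 655 times in HFCF WT livers, a log2 fold change of 4.23 (SE 0.39, adjusted p = 0.000111, limma). In HuRHep-/- livers it was counted 15, 19 and 11 times on chow and 477, 559 and 452 times on HFCF, a log2 fold change of 4.81 (SE 0.39, adjusted p = 4.03e-05). Counts of Themis were 1.38 to 3.38 times those of Cd3e in the 6 chow livers and 17.5 to 65.5 times in the 6 HFCF livers, while Cd3e itself was at -0.11 (SE 0.32) in WT and rose by 1.46 (SE 0.32, adjusted p = 0.00496) in HuRHep-/- livers.

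Ly6d was counted 9, 15 and 23 times in chow WT, 39, 25 and 19 times in chow HuRHep-/-, 393, 54 and 971 times in HFCF WT and 1750, 1404 and 1330 times in HFCF HuRHep-/- livers. Its log2 fold change with HFCF was 4.02 (SE 0.78, adjusted p = 0.00436) in WT and 5.56 (SE 0.78, adjusted p = 0.000484) in HuRHep-/- livers, and Cd79a was at -0.55 (SE 0.31) and 0.13 (SE 0.31). Among the 3 HFCF WT livers, liver 2 was the lowest for Themis, Ly6d, Cd3e and Cd3d and the highest for Cd4. Left without Themis, the summed level of the other T cell genes was 21.8 to 27.1 CPM in chow WT, 24.3 to 31.2 in chow HuRHep-/-, 18.2 to 27.1 in HFCF WT and 29.8 to 31.9 in HFCF HuRHep-/- livers. Left without Ly6d, the other B cell genes summed to 25.7 to 47.3, 46.5 to 58.9, 37.7 to 48.9 and 59.3 to 62.0 CPM. The cells that gave these counts were not identified.

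Antibody genes did not pass the test with HFCF in either genotype. They were chosen after their values were seen. Ighm, the heavy chain of IgM, was at a log2 fold change of 0.12 (SE 0.46) in WT and 0.02 (SE 0.46) in HuRHep-/- livers, Igkc, the kappa light chain, at -0.07 (SE 0.39) and -0.11 (SE 0.39), and Jchain, which joins secreted antibody, at -0.19 (SE 0.41) and -0.02 (SE 0.41).

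Summed levels of the T cell, B cell and cytotoxic members were compared across the 12 livers as deviations from the group means, in 3 pairs. Pearson's r was 0.11 for T and B cell genes (permutation p = 0.835, rho 0.34, p = 0.387), -0.037 for T cell and cytotoxic genes (permutation p = 0.922, rho 0.16, p = 0.66) and 0.097 for B cell and cytotoxic genes (permutation p = 0.791, rho 0.063, p = 0.861). Adjusted over the 3 pairs, p was 0.922 for each r and 0.861 for each rho. Without HFCF WT livers 2 and 3, whose T cell sums deviated most once group means were removed, r became 0.57 and 0.64 for the first 2 pairs, so these values rest on those livers. In HFCF WT liver 2, Cd4 made 4.06 of the 4.64 CPM of the T cell sum, while Cd3e and Cd3d were the lowest of the 12 livers. The T cell sum there thus followed Cd4 and not the CD3 chains. Without chow WT liver 1 and chow HuRHep-/- liver 3 the third was 0.26.

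Among 11588 genes with at least 20 counts in every liver, those whose deviations from the group means over 12 livers were most like the mean of Cd3e and Cd3d were Erbin (r = 0.97), Galk1 (0.95), Fmn1 (0.94), Lamc1 (0.94) and Aldh3a2 (0.94). For the mean of Cd79a and Cd79b they were Htra1 (r = 0.96), H2afy2 (0.95), Prss23 (0.95), Phldb1 (0.94) and Slc5a1 (0.94). With this many genes and 12 livers such values are descriptions only.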
